A study of Mus musculus with 6 samples.

Results

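The heat shock genes described here are 10 genes of the mouse aortic valve: Hspa1a, Hspa1b, Hsph1, Dnajb1, Hspb1, Hsp90aa1, Bag3, Hspa8, Hspd1 and Hsf1. They were chosen by name from the 46983 genes listed in the expression table, with the difference of several of them between the ages already known, so their own values are described without a test. Aortic valves of wild type C57BL/6J mice were sequenced as pups of postnatal day 2 (PND2) and as adults of 4 months. There were 3 libraries per age, and each library pooled the valves of 5 to 6 mice. Animals of both ages were euthanized with CO2, followed by decapitation in pups and by cervical dislocation in adults, and valves were flash frozen. Age and this second step of euthanasia cannot be told apart in this design. Values are RPKM, reads scaled by the exonic length of a gene and by the total of its library. The exonic length joins all listed exons of a gene, retained introns among them, so that levels of different genes are compared only roughly, while a gene keeps the same length in all libraries.

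Heat shock proteins are molecular chaperones that bind unfolded or partly folded proteins and help them to fold, to avoid aggregation or to be degraded. In unstressed cells heat shock factor 1 (HSF1) is held inactive. When unfolded proteins accumulate, for example after heat or other injury, HSF1 forms trimers, binds heat shock elements in the promoters of its target genes and raises their transcription within minutes. Some chaperones are made in larger amounts in that response and are called inducible, although some of them are also abundant without it. Others, called constitutive, are made at all times. By this division, drawn from general knowledge, Hspa1a, Hspa1b, Hsph1, Dnajb1, Hspb1, Hsp90aa1 and Bag3 were classed as inducible, Hspa8 and Hspd1 as constitutive, and Hsf1 as the regulator. The group is named for the cytosol, but Hspd1 encodes the chaperonin of the mitochondrial matrix (HSP60), and Hsf1 encodes a transcription factor rather than a chaperone.

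Heat shock elements are built from inverted repeats of the letters GAA, and the letters of such pairs were looked for in RefSeq promoter sequences of the mouse build GRCm38.p6, which run from 250 bases before to 50 bases after each start site. A pair was searched as GAANNTTC or TTCNNGAA and a triple as 3 alternating units of GAA and TTC, each separated by 2 bases. Both pairs read the same on either strand, each form of the triple is the reverse complement of the other, and a triple contains overlapping pairs. A promoter was listed for 7 of the 10 genes. Of these, 6 genes had a pair, and Hsph1 and Hspd1 had a triple, while Dnajb1 had neither. Counted by promoter, 7 of 10 held a pair and 3 of 10 a triple, with the same letters of Hsph1 counted in each of its promoters. Over all 32851 promoters listed, 15.1% held a pair and 0.603% a triple, and over the 16380 promoters of genes tested here the shares were 12.3% and 0.482%. A match describes letters and does not show that HSF1 bound there. Only exact letters were searched, so the lack of a match does not show that an element is absent. The stretches below are shown because they differ in these letters, with the pairs and triples in capitals. The first 3 cover the 150 bases before the start site of Hspa1a (chr17:34972157-34972306, minus strand), of Hspb1 (chr5:135887769-135887918, plus strand) and of Dnajb1 (chr8:83608025-83608174, plus strand), and the last 2 cover 30 bases around the triples of Hsph1 (chr5:149636287-149636316, minus strand) and Hspd1 (chr1:55088055-55088084, minus strand).
Hspa1a: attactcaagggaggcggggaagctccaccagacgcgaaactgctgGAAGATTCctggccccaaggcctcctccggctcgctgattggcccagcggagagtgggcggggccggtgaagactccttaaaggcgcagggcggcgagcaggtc
Hspb1: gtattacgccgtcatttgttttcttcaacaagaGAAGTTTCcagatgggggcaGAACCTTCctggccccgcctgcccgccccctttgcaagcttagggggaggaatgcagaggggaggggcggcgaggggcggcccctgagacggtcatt
Dnajb1: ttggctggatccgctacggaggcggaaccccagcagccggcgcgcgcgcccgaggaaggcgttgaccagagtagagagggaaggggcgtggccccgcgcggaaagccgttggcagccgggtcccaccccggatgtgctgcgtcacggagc
Hsph1: agtaaaatgctgcagaTTCTGGAAAGTTCt
Hspd1: gcggggccTTCCGGAAGGTTCTAGAAcgga

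The pair of Hspa1a began 104 bases before its start site, and the same stretch of Hspa1b was identical at 149 of 150 positions, the pair included. Hspb1 had a pair at 117 and another at 97 bases before its start site. The Hsph1 triple lay 37 bases after the first of its listed start sites. The Hspd1 letters formed 2 overlapping triples, which began 144 and 139 bases before its second listed start site. They also lay before the start site of Hspe1, the neighbouring gene on the opposite strand, where they began 89 and 84 bases upstream. In the values given next, the genes with a pair had these log2 differences, 4 months minus PND2. They were 6.51 for Hspa1a, 6.61 for Hspa1b, 2.13 for Hsph1, 1.41 for Hspb1, 1.30 for Bag3 and -0.07 for Hspd1. Dnajb1, which has no pair in its window, had 1.97. The part of these letters in the differences was not tested.

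Library totals ran from 23810507 to 38994657. Correlations of log2(RPKM + 0.1) across the 25903 genes tested were 0.961 to 0.970 between libraries of an age and 0.911 to 0.922 between ages. They are computed over genes, which do not replicate each other. The cardiomyocyte markers were at 18216 to 20849 RPKM in sum at PND2 and 7332 to 11594 at 4 months, so the valve libraries of both ages held RNA of heart muscle. All 7 valve interstitial markers were detected at both ages, with sums of 6019 to 6492 RPKM at PND2 and 7651 to 9667 RPKM at 4 months. The third library of 4 months carried the highest values of most heat shock genes, and folds are therefore given with and without it. In bulk RNA, fewer cells of a type and less RNA per cell cannot be told apart.

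**Figure D1:**
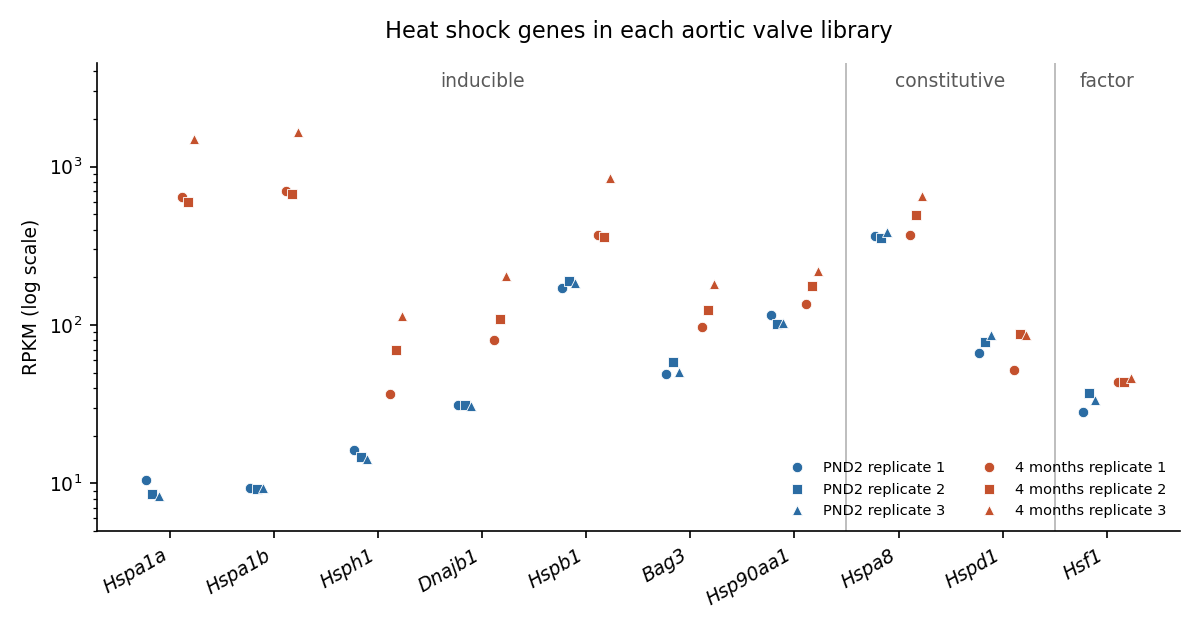
RPKM (log scale) of the 10 heat shock genes in each library, PND2 in blue and 4 months in orange, with a symbol for each replicate. Hspa1a lies between 8.33 and 10.4 RPKM at PND2 and between 601 and 1495 RPKM at 4 months, and the triangles of 4 months replicate 3 lie highest of their age in 9 of the 10 genes.

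Hspa1a and Hspa1b encode the stress-inducible cytosolic HSP70, which binds exposed hydrophobic stretches of unfolded proteins and releases them in an ATP cycle. They are neighbouring genes on chromosome 17 (chr17:34969190-34972156 and chr17:34956436-34959238, minus strand), each with a single exon. Hspa1a was at 10.4, 8.63 and 8.33 RPKM at PND2 and at 647, 601 and 1495 RPKM at 4 months. Hspa1b was at 9.33, 9.22 and 9.39 RPKM at PND2 and at 700.0, 673 and 1664 RPKM at 4 months. The groups did not overlap, and the lowest 4 months library was 57.6 times the highest PND2 library for Hspa1a and 71.7 times for Hspa1b. The fold of the means was 100.2 for Hspa1a and 109 for Hspa1b. On the scale of log2(RPKM + 0.1) the differences were 6.51 ± 0.33 (SE) and 6.61 ± 0.32. Only 22 of the 25903 genes tested, Hspa1a and Hspa1b included, had a difference at or above that of Hspa1a. Without 4 months replicate 3 the folds were 68.4 and 73.7.

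The protein-coding genes of each library, without those of the mitochondrial genome, were ordered by RPKM. In that order Hspa1a stood between ranks 7564 and 8707 at PND2 and between 31 and 90 at 4 months. For Hspa1b the ranks were 8033 to 8403 and 22 to 77. These values rested on 723 to 1208 reads per PND2 library for Hspa1a and on 42486 to 128422 reads per 4 months library. The coding sequences of both genes have 99.6% identical aligned bases. Of the 50-base stretches of the Hspa1a transcript, the length of a read before trimming, 58.8% also occur in Hspa1b. Reads were paired and trimmed by a few bases, so such shares, here and below, are not shares of ambiguous reads. Given this likeness, how reads were divided between Hspa1a and Hspa1b is uncertain. Their ratio was 0.980 ± 0.122 (SD, n = 3) at PND2 and 0.905 ± 0.017 at 4 months. Gm20481, a gene model on the opposite strand, shares exon bases with Hspa1a and carried nearly the same values. The sources do not say if strand was used in counting.

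Hsph1, on chromosome 5 (chr5:149614287-149636376, minus strand), encodes HSP110, which exchanges the nucleotide of HSP70 and holds unfolded proteins. It was at 16.2, 14.7 and 14.4 RPKM at PND2 and at 36.4, 69.1 and 115 RPKM at 4 months. Its 4 months libraries were all above those of PND2 but differed 3.15-fold among themselves, the widest range of the 10 genes. The fold of the means was 4.87, and 3.50 without 4 months replicate 3. Dnajb1 (chr8:83608175-83611902, plus strand) encodes a J protein, or HSP40, that stimulates the ATPase of HSP70 and delivers substrates to it. It was at 31.3, 31.2 and 30.8 RPKM at PND2, a range of 1.02-fold, and at 80.1, 110 and 205 RPKM at 4 months. The fold of the means was 4.24, and 3.06 without 4 months replicate 3.

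Bag3 and Hspb1 act beside HSP70. BAG3 (chr7:128523616-128546981, plus strand) is a nucleotide exchange factor that links HSP70 to small heat shock proteins and to the autophagic removal of damaged proteins, well known in muscle. Bag3 was at 49.2, 58.1 and 50.8 RPKM at PND2 and at 96.9, 124 and 181 RPKM at 4 months. Every 4 months library was above every PND2 library, and the fold was 2.54. The log2 difference of Bag3 was 1.30 ± 0.21 (SE), and 1.06 without 4 months replicate 3. Hspb1 (chr5:135887919-135889563, plus strand) encodes a small heat shock protein that binds unfolding proteins without ATP and also interacts with actin. It was at 170, 191 and 184 RPKM at PND2 and at 369, 358 and 852 RPKM at 4 months. Replicates 1 and 2 of 4 months were thus nearly equal, while replicate 3 was 2.34 times their mean. The fold was 2.90, and 2.00 without replicate 3. Of the 50-base stretches of the Hspb1 transcript, 51.6% also occur in the copy Hsp25-ps1.

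Hsp90aa1 (chr12:110690605-110702728, minus strand) encodes the inducible form of cytosolic HSP90, which completes the folding of kinases and steroid receptors. It was already abundant at PND2, with 116, 101 and 103 RPKM, and was at 135, 178 and 221 RPKM at 4 months. The groups did not overlap, but the lowest 4 months library exceeded the highest PND2 library only 1.16-fold. Its fold of 1.67, or 1.47 without 4 months replicate 3, was the smallest of the inducible genes. Of its 50-base stretches, 58.5% also occur in other genes, chiefly Gm12346.

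The genes classed as constitutive had smaller log2 differences than the inducible genes. That of Hspa8 was nearest to Hsp90aa1, which had 0.71 ± 0.18 (SE). Hspa8 (chr9:40800984-40805200, plus strand) encodes HSC70, the housekeeping HSP70, which also uncoats clathrin vesicles. It was at 367, 355 and 387 RPKM at PND2 and at 371, 495 and 657 RPKM at 4 months. The lowest 4 months value lay within the PND2 range, and the log2 difference was 0.42 ± 0.20 (SE), or 0.21 without 4 months replicate 3. Hspd1 (chr1:55077835-55088243, minus strand) was at 66.7, 77.7 and 86.9 RPKM at PND2 and at 52.0, 87.2 and 86.6 RPKM at 4 months. The ages overlapped over the whole PND2 range, and the log2 difference of -0.07 ± 0.21 was smaller than its error and turned to 0.06 with median scaling. Other genes, chiefly the copies Gm15459 and Hspd1-ps3, also hold 52.7% of the 50-base stretches of Hspa8 and 44.8% of those of Hspd1.

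Hsf1 (chr15:76477445-76500972, plus strand), which encodes the factor itself, was at 28.2, 37.1 and 33.5 RPKM at PND2 and at 43.7, 43.4 and 46.4 RPKM at 4 months. The groups did not overlap, and the fold of the means was 1.35, or 1.32 without 4 months replicate 3. Unlike the inducible genes, Hsf1 was nearly the same in the 4 months libraries, with a coefficient of variation of 3.78%. HSF1 is controlled mainly at the protein level, which RNA does not show.

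**Figure D2:**
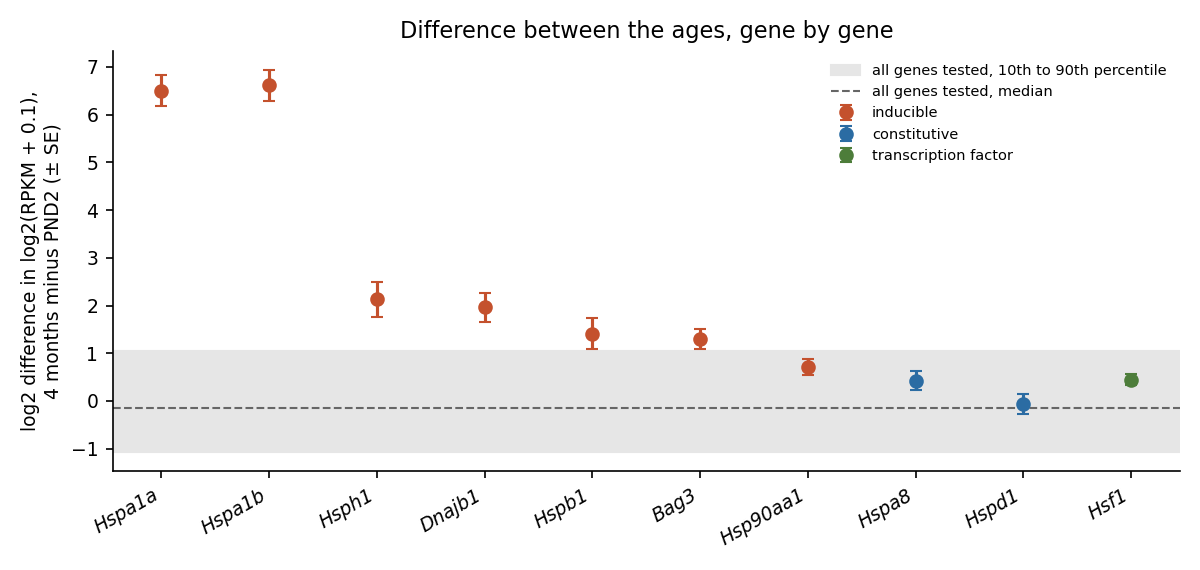
Difference of each heat shock gene between the ages on the scale of log2(RPKM + 0.1), 4 months minus PND2, with its SE from limma. The grey band spans the 10th to the 90th percentile of all 25903 genes tested (-1.07 to 1.05) and the dashed line their median (-0.14); 6 of the 7 inducible genes lie above the band, and Hsp90aa1, the constitutive genes and Hsf1 lie within it.

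The median log2 difference was 1.97 over the 7 inducible genes, with a range from 0.71 to 6.61, and 0.18 over the 2 constitutive genes, beside -0.14 over all genes tested. Without 4 months replicate 3 the inducible median was 1.59, without 4 months replicate 1 it was 2.27, and with Hspa1a and Hspa1b counted as 1 gene it was 1.69. With Hsp90aa1 classed as constitutive, the inducible median was 2.05 and the constitutive median 0.42. In 8 of the 10 genes every 4 months library was above every PND2 library, namely the 7 inducible genes and Hsf1. Of all genes tested, 20.0% had that order. Because the genes were picked with this contrast known, nothing is read from the comparison of these shares. Summed over the inducible genes, RPKM ran from 401 to 414 at PND2 and was 2065, 2114 and 4733 at 4 months. The 10 genes together took 0.116 to 0.121% of the reads on genes at PND2 and 0.314, 0.354 and 0.678% at 4 months.

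At PND2 the inducible genes were at similar levels in all libraries, with coefficients of variation from 0.882 to 12.5%, beside a median of 11.2% over the 14215 genes with a mean of at least 5 RPKM. At 4 months the same genes varied by 24.1 to 55.8%, beside a median of 10.5%. Replicate 3 was the highest of the 4 months libraries in 9 of the 10 genes, all but Hspd1, and in 25.4% of the genes tested. It was at least 1.5 times the mean of replicates 1 and 2 in 7 of the 10 genes, which were Hspa1a, Hspa1b, Hsph1, Dnajb1, Hspb1, Bag3 and Hspa8, and in 1.87% of the genes with a mean of at least 5 RPKM. Replicate 1 was the lowest of the 4 months libraries for Hsph1, Dnajb1, Bag3, Hsp90aa1, Hspa8 and Hspd1, whereas replicate 2 was slightly lower for Hspa1a, Hspa1b, Hspb1 and Hsf1. The pools of adult mice therefore differed from each other in the level of the inducible chaperones more than the pools of pups did. This was not particular to the inducible genes. Hspa8 varied by 4.31% at PND2 and by 28.3% at 4 months, and Hspd1 by 13.1% and 26.8%. Both were above Hsp90aa1 at 4 months (24.1%). Hsf1 went the other way, with 13.5% at PND2 and 3.78% at 4 months. These values describe 3 libraries per age with no test.

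**Figure D3:**
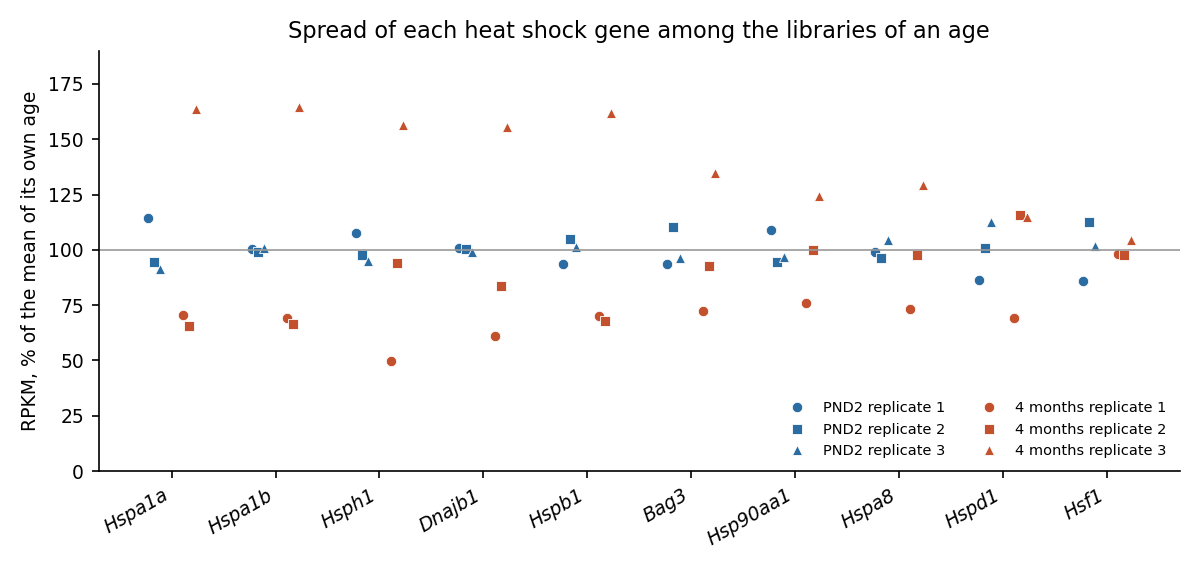
RPKM of each heat shock gene in each library as a percentage of the mean of its own age, PND2 in blue and 4 months in orange. For each inducible gene the blue points span a narrower range than the orange ones. The orange triangles (4 months replicate 3) are the highest adult values for the inducible genes and Hspa8. For Hsp90aa1 the adult libraries lie in nearly even steps, and for Hsf1 they lie close together.

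Several of the genes were also set against a relative or partner, and the change of such a ratio between the ages does not depend on the lengths. Hspa1a stood at 0.0248 ± 0.0035 (SD, n = 3) of the RPKM of Hspa8 at PND2 and at 1.74 ± 0.53 of it at 4 months, with ratios of 1.74, 1.21 and 2.27 in the adult libraries. The order of these genes in the adult is not settled by the ratio, because the exonic length of Hspa8, 4156 bases, takes in most of its introns, whereas Hspa1a is a single exon. An Hspa8 exon of 406 bases (chr9:40802974-40803379), picked after its values were seen, was at 798, 1096 and 1455 RPKM at 4 months, beside 647, 601 and 1495 RPKM of Hspa1a. Hsp90aa1 was at 0.149 ± 0.023 of Hsp90ab1, the constitutive HSP90, at PND2 and at 0.216 ± 0.020 at 4 months. Hsph1 went from 0.219 ± 0.028 to 0.992 ± 0.512 of Hspa4, an HSP110 relative. In the adult libraries this ratio was 0.561, 0.856 and 1.56. Dnajb1 went from 1.55 ± 0.13 to 3.72 ± 0.67 times Dnaja1, another J protein of the cytosol. The mitochondrial chaperonin Hspd1 kept overlapping ratios to its co-chaperonin Hspe1, at 1.81 ± 0.29 and 1.59 ± 0.24. These genes lie head to head and share exon bases on opposite strands, so part of the reads of each is uncertain.

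**Figure D4:**
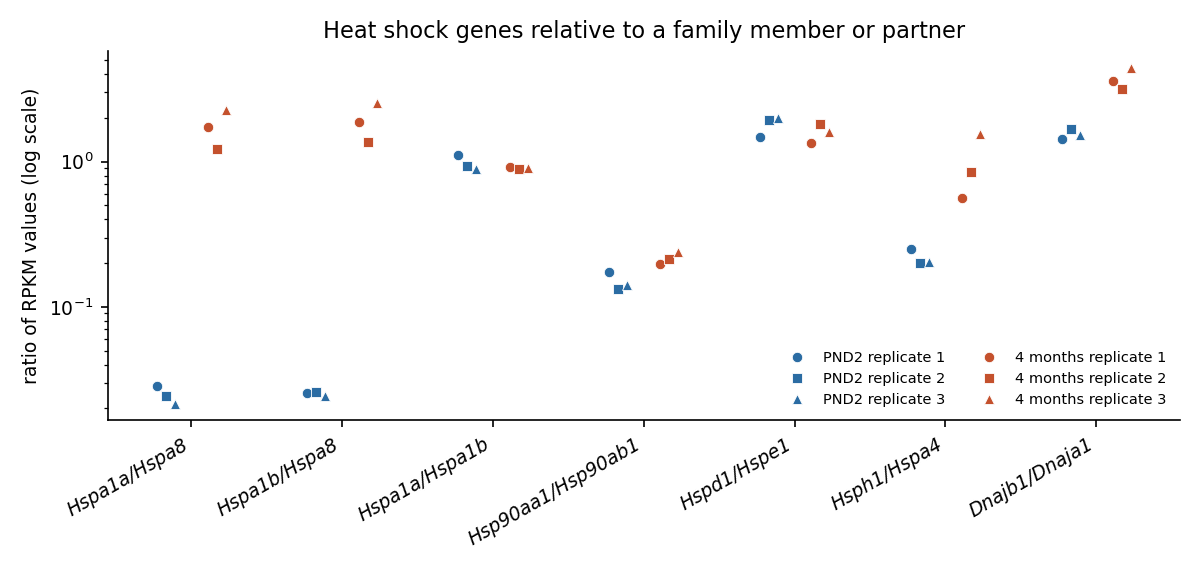
Ratio of RPKM values (log scale) of heat shock genes to a family member or partner in each library, PND2 in blue and 4 months in orange. Hspa1a/Hspa8 and Hspa1b/Hspa8 lie below 0.03 in all PND2 libraries and above 1.2 in all 4 months libraries, while Hspd1/Hspe1 overlaps between the ages.

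Exon values were also compared along the transcripts. Of the exons with at least 1 RPKM in 3 or more libraries, the 4 months mean on the log scale was above the PND2 mean in 35 of 35 for Hsph1, 24 of 24 for Hsp90aa1, 5 of 5 for Hspb1, 4 of 4 for Bag3 and 3 of 3 for Dnajb1. It was above in 29 of 29 for Hspa8 and 12 of 12 for Hsf1, but in 7 of 14 for Hspd1. This count therefore does not set Hspa8 apart from the inducible genes. Every 4 months library was above every PND2 library in 34 of 35 exons of Hsph1 and 21 of 24 of Hsp90aa1. The same held for all those of Hspb1, Bag3 and Dnajb1, 9 of 12 of Hsf1, 3 of 14 of Hspd1 and 1 of 29 of Hspa8. The shares over all exons were not computed. Exons of a gene share libraries and partly overlap each other, so they are not replicates. In Hspa8, where the median exon difference was 0.38 on the log2 scale, a listed exon of 160 bases (chr9:40801461-40801620) had 3.11. It was at 0.160, 1.23 and 0.854 RPKM at PND2 and at 5.19, 5.77 and 6.69 RPKM at 4 months, and was the only Hspa8 exon without overlap between the ages. This exon was picked after its values were seen, and its RPKM is a small part of that of the gene.

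Beyond these genes, 84 further chaperone genes in 8 lists were compared between the ages with limma and Benjamini-Hochberg adjustment over all genes tested. Of the 82 that could be tested, 11 rose and 19 fell with age at an adjusted p under 0.05, which is 13.4% and 23.2%. Over all 25903 genes tested, 14.7% rose and 21.1% fell, so that the chaperone lists as a whole stood close to the background. The same shares are the background for the counts of each list given below. The median log2 difference of the 82 genes was -0.05. With median scaling, which moved the median of all genes from -0.14 to -0.02, 15 rose and 14 fell. A single direction for the chaperones as a whole therefore does not follow from these counts.

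In the HSP70 and HSP110 family, 2 of 8 further genes rose and 3 fell. Hspa1l, a testis-enriched HSP70 next to Hspa1a on chromosome 17, was at 8.05, 6.97 and 7.73 RPKM at PND2 and at 42.7, 48.4 and 92.3 RPKM at 4 months, a log2 difference of 2.91 ± 0.27 (SE, limma adjusted p = 0.00037). The unequal-variance test per gene, adjusted over all genes, did not call it (adjusted p = 0.064, range over the alternatives 0.00011 to 0.064). Like Hspa1a, it was highest in 4 months replicate 3. Of its 50-base stretches, 71.4% also occur in Gm10501, which shares its exon on the other strand. Hspa2, another HSP70 known from the testis, rose by 1.32 ± 0.17 (limma adjusted p = 0.0015). Hspa12b, an endothelial relative, fell by 0.69 ± 0.13 (limma adjusted p = 0.0053) on the log2 scale, beside a fall of all 6 endothelial markers, whose part in it was not tested. Hspa14, which works at the ribosome, fell from 10.2 to 7.16 RPKM in the mean (limma adjusted p = 0.039), a call lost whenever any library but PND2 replicate 1 was left out. Hspa4 did not pass the test, with means of 69.1 and 73.1 RPKM.

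Among the small heat shock proteins 2 of 7 tested genes rose and 3 fell, and Cryaa was listed at 0 in all libraries. Hspb8, which forms a complex with BAG3, was at 45.3, 44.3 and 38.8 RPKM at PND2 and at 139, 183 and 186 RPKM at 4 months, a log2 difference of 1.97 ± 0.13 (SE, limma adjusted p = 0.00011). Hspb6, known from smooth muscle, was at 77.4, 102 and 106 RPKM at PND2 and at 202, 217 and 218 RPKM at 4 months (limma adjusted p = 0.00081). In both, replicates 2 and 3 of 4 months were nearly equal, unlike in Hspb1. Hspb3, a form of striated muscle, fell from 14.2 ± 2.4 to 4.16 ± 1.00 RPKM (mean ± SD, n = 3; limma adjusted p = 0.0010), and Hspb11, whose product is better known as a subunit of intraflagellar transport, fell from 13.4 to 8.43 RPKM in the mean. Of the genes named in these lists, Hspb6, Dnajc7, Dnaja1, Unc45b, Cct8 and Hspe1 share exon bases with a gene on the other strand or a neighbour, so part of their reads is uncertain. Cryab, the abundant alpha B crystallin, had means of 477 and 514 RPKM and did not pass the test. Of 8 smooth muscle markers 7 rose, with sums of 7499 to 8670 RPKM at PND2 and 16934 to 28034 at 4 months, and of 10 cardiomyocyte markers 4 fell and 0 rose by limma. The part of these cell types in the differences of Hspb6, Hspb8 and Hspb3 was not tested.

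Of 15 further J proteins 3 rose and 4 fell. The count of falls was 1 with median scaling and when PND2 replicate 2, PND2 replicate 3, 4 months replicate 1 or 4 months replicate 3 was left out, and the count of rises was 5 with median scaling and without 4 months replicate 1. Dnajb5 was at 11.8, 10.5 and 10.4 RPKM at PND2 and at 36.2, 35.4 and 41.6 RPKM at 4 months, a log2 difference of 1.78 ± 0.11 (SE, limma adjusted p = 7.3e-05). Dnajb4 was at 34.7, 26.5 and 27.7 RPKM and at 69.8, 92.3 and 113 RPKM, with the order of the adult libraries that Dnajb1 also had. Both belong to the same subfamily of J proteins as Dnajb1. Dnajc7, which also binds HSP90, fell from 82.1 to 46.4 RPKM in the mean (limma adjusted p = 0.00077), and Dnajc2, a partner of Hspa14 at the ribosome, from 8.40 to 5.65 RPKM, a call lost when any library but 4 months replicate 2 was left out. Dnaja1 was at 21.9, 18.5 and 20.0 RPKM at PND2 and at 22.4, 34.9 and 46.0 RPKM at 4 months, and just missed the threshold (limma adjusted p = 0.056). Without 4 months replicate 1 it passed (limma adjusted p = 0.0062), and over all alternatives the adjusted p ran from 0.0062 to 0.26.

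Among HSP90 and its co-chaperones 3 of 15 genes rose and 1 fell. Hsp90ab1 was at 720 ± 51 RPKM (SD, n = 3) at PND2 and at 814 ± 125 RPKM at 4 months and did not pass the test. Unc45a and Unc45b, myosin chaperones of general and of striated muscle use, moved in opposite directions. Unc45a rose by 1.34 ± 0.15 (SE, limma adjusted p = 0.00086) and Unc45b fell by 1.07 ± 0.16 (limma adjusted p = 0.0024) on the log2 scale. Of 8 nucleotide exchange factors and HSP70 partners 0 passed the limma test, 0 had an unadjusted p under 0.05, and voom on the recovered reads also gave 0. The unequal-variance test per gene gave 0 after adjustment and 1 before it. Bag1, the relative of Bag3, had means of 149 and 163 RPKM.

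The chaperonin TRiC and prefoldin, which fold actin and tubulin, had 6 of 14 genes lower and 0 higher at 4 months by limma. The lower genes were 42.9% of the list, beside 21.1% of all genes tested, and the median of the list was -0.33. At an unadjusted p under 0.05 there were 9 lower and 0 higher, voom on the recovered reads gave 6 and 0 after adjustment, and median scaling gave 5 lower and 1 higher. Without 4 months replicate 2 there was also 1 higher. Cct2 was at 212, 231 and 218 RPKM at PND2 and at 155, 159 and 162 RPKM at 4 months, a log2 difference of -0.47 ± 0.08 (SE, limma adjusted p = 0.0050). Cct8 was at 140, 148 and 153 RPKM and at 106, 105 and 108 RPKM. These genes were close together in the adult libraries, where the inducible genes were far apart. In the mitochondrial list 1 of 10 genes fell, Grpel2, a nucleotide exchange factor of mitochondrial HSP70, from 10.4 to 7.08 RPKM. Hspe1 with means of 42.8 and 46.8 RPKM and Hspa9 with 127 and 112 RPKM did not pass the test. Of the heat shock factors, Hsf2 was at 18.7, 20.2 and 21.5 RPKM at PND2 and at 12.4, 14.5 and 14.1 RPKM at 4 months (limma adjusted p = 0.0080), opposite to the order of Hsf1. Hsf4, named because it was the only gene of its list that rose, went from 0.369 to 3.49 RPKM in the mean.

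**Figure D5:**
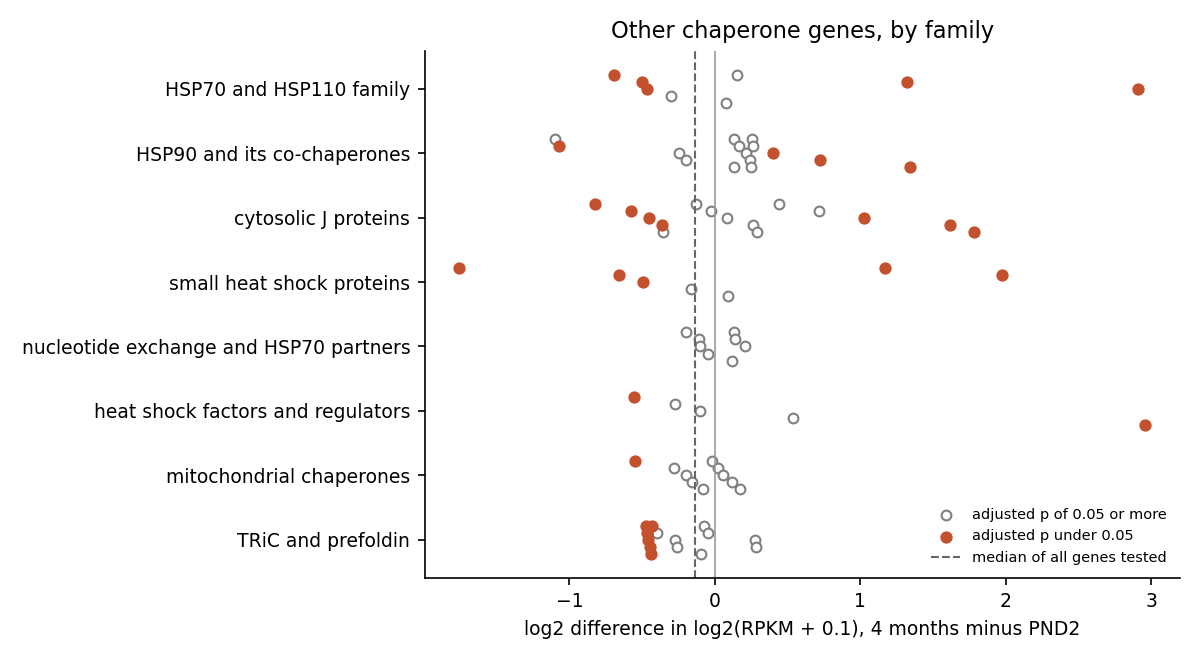
Log2 difference between the ages, 4 months minus PND2 on the scale of log2(RPKM + 0.1), of the 82 tested chaperone genes outside the 10 described, by list; filled points had a limma adjusted p under 0.05. Rises and falls occur side by side in the HSP70, HSP90, J protein and small heat shock protein lists, and the filled points of TRiC and prefoldin all lie below 0.

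The pattern most like that of Hspa1a over the 6 libraries was looked for among 10603 protein-coding genes with a mean of at least 5 RPKM, by the root mean square difference of log2(RPKM + 0.1) after centring each gene. For Hspa1b this difference was 0.115. The nearest of the other genes were Gm20481 at 0.123, which shares exon bases with Hspa1a, then Myoc at 0.359, Mmp3 at 0.430, Cd74 at 0.454 and Itih2 at 0.566. Myoc, the gene of the secreted protein myocilin, was at 0.964, 0.679 and 0.939 RPKM at PND2 and at 83.2, 64.7 and 91.0 RPKM at 4 months. Mmp3, a secreted protease of the matrix, was at 1.10, 1.15 and 1.41 RPKM and at 90.8, 64.2 and 103 RPKM. Cd74, the invariant chain of MHC class II, was at 599, 456 and 522 RPKM at 4 months, with its lowest adult value in replicate 2. The likeness over 6 libraries of 2 ages is set mainly by the size of the difference between the ages, and of the genes named only Gm20481 had the excess of replicate 3 that Hspa1a had.

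Immediate early genes, which respond within minutes to many stimuli including handling of tissue, also differed between the ages. Of 15 such genes 11 rose and 1 fell, and their summed level was 329 to 344 RPKM at PND2 and 902 to 1249 RPKM at 4 months. Within the adult libraries their sum was highest in replicate 1, at 1249 RPKM, beside 902 RPKM in replicate 2 and 1161 RPKM in replicate 3. Gene by gene, replicate 3 was the highest adult library for 6 of the 15, beside 25.4% of all genes tested. Macrophage markers rose in 5 of 6, from sums of 131 to 162 RPKM to 290 to 362 RPKM, and adipocyte markers in 5 of 6, with Cidec and Lep listed at 0 in all PND2 libraries. The adipocyte sum was 339, 1391 and 322 RPKM in the adult libraries and thus highest in replicate 2. Of 6 skeletal muscle markers 3 fell, and of 7 valve interstitial markers 2 rose and 4 fell. Among the adult libraries the smooth muscle sum was highest in replicate 1 and the cardiomyocyte sum in replicate 2. The valve interstitial sum was highest in replicate 3, at 9667 RPKM beside 8765 and 7651 RPKM. Over all genes tested 14.7% rose and 21.1% fell, the shares to set beside the marker counts given here and above. The marker lists were not run under the alternatives. The part of these lists in the levels of the heat shock genes was not tested.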

How the data were processed

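Aortic valve RNA was sequenced from 6 libraries, 3 per age, prepared with a stranded kit as paired reads of 50 bases. The authors aligned the reads to mm10 with TopHat 2.1.0 and used easyRNASeq with Ensembl models to obtain the deposited RPKM values, for genes and for exons. Whether their counting used strand is not given in the sources used here. From each RPKM value, the exonic length and the library total, whole reads were recovered for 100% of values (tolerance 0.01 read). Reads summed over genes came to 2.31 to 2.36 times the library totals. The unit of the totals is not stated in the sources used here. The sums, 55069102 to 90673545, were all above the average number of reads per sample that the authors report. On average a read was therefore counted more than once. How far this came from several genes or from several alignments of a read is not given. Library totals of 23810507 to 38994657 set the precision: a read on 1 kb of exon was worth 0.0256 to 0.0420 RPKM.

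The 25903 genes with at least 0.1 RPKM in 3 or more libraries were fitted with limma 3.58.1 (R 4.3.3, eBayes with trend) on log2(RPKM + 0.1), with 2-sided tests and Benjamini-Hochberg adjustment at 0.05. Adding 0.1 shrinks the fold of weakly expressed genes. Other tables used Python 3.11.15, pandas 2.3.3, numpy 2.4.6 and matplotlib 3.10.9. The 10 genes and the lists were chosen with earlier results of these data known, so the 10 genes have no p-value. Besides them, up to 2 rises and 2 falls per list with a mean of at least 5 RPKM at the higher age were named, with the close relatives Hsp90ab1, Hspe1, Hspa9, Hsf2, Cryab, Hspa4, Dnaja1 and Bag1 and the 5 genes nearest in pattern to Hspa1a. The labels do not say whether mice of different libraries came from separate litters, so p-values measure the spread between these pools. Alternatives were other pseudocounts, filters and scalings, no trend, voom on the recovered reads, an unequal-variance test per gene, a fold over 2, a replicate block and each library left out. The class medians were also taken with Hsp90aa1 as constitutive and with Hspa1a and Hspa1b as 1 gene. The fit was tested on simulated data. The replicate numbers did not pair the libraries. A gene that meets the rule for named genes is not reported here.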

Additional observations from a re-analysis of the deposited data

How the results depend on the processing

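The 7 inducible genes stayed higher at 4 months under every alternative run. Their median log2 difference was 1.97, ran from 1.59 to 2.27 when each library was left out, and was 1.69 with Hspa1a and Hspa1b as 1 gene. Classing Hsp90aa1 as constitutive gave 2.05, and moved the constitutive median from 0.18 to 0.42. Of the other chaperone genes, 11 were higher and 19 lower, and 7 and 9 with the unequal-variance test per gene. With a fold over 2, 9 were higher and 2 lower, so the falls were mostly small. When each library was left out, 10 to 13 were higher and 13 to 18 lower. The replicate block gave 11 higher and 14 lower, and it ended the calls of Hspa14 (adjusted p = 0.095, range over the alternatives 0.015 to 0.13) and Dnajc2 (adjusted p = 0.058, range 0.012 to 0.14), and no other call of a named gene. Falls of J proteins went from 4 to 1 with the block, to 2 without the trend and to 0 with the unequal-variance test per gene. That test also ended the calls of Hspa1l (adjusted p = 0.064), Hspa12b (0.071), Hspb6 (0.062), Hspb11 (0.063), Dnajc7 (0.0504), Hspa14 (0.12) and Dnajc2 (0.14) among the genes named. The same-numbered libraries of the ages had correlations of deviations of 0.0439, -0.0608 and -0.1599, so the numbers are shared without pairing. Median scaling also ended the calls of Hspa14 and Dnajc2. The sign of Hspd1 changed with median scaling (0.06) and without PND2 replicate 3 (0.02) or 4 months replicate 1 (0.18). The cause was not tested. Reads shared between near-identical copies limit the separate values of Hspa1a and Hspa1b, and depth does not, since both had over 700 reads in every library.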
